A study of Mus musculus with 12 samples.

Results

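The heat shock proteins and the J-domain co-chaperones were followed in the renal cortex of nephrotic ICGN mice and normal ICR mice. Members were the probe sets annotated with 1 gene symbol beginning with Dnaja, Dnajb or Dnajc and a number (Dnajc18 left out), with Hspa, Hspb, Hspd, Hspe or Hsph and a number, or with Hsp90. The rule used names and no measured value. It took 166 of 45101 probe sets and 69 of 18193 named genes, of which 43 were J-domain genes and 26 heat shock protein genes. RNA came from 4 groups of 3 arrays each: ICGN at 4 weeks, ICR at 4 weeks, ICGN at 8 weeks and ICR at 8 weeks. ICGN is an ICR-derived inbred strain with hereditary glomerulonephritis, labelled here with nephrotic syndrome, and is known to carry a Tns2 mutation. The labels name no treatment, no sex and no number of mice behind an array, so p-values measure only the spread between these samples, which may be technical. ICGN and ICR differ in their whole genetic background as well as in disease, and the comparison does not separate the 2.

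Heat shock proteins hold unfolded or misfolded proteins and help them to fold. HSP70 proteins bind short stretches of a client while ATP is turned over, J-domain proteins deliver clients and start that turnover, and HSP110 proteins reload HSP70 with ATP. HSP90 finishes the folding of signalling proteins, HSP60 with HSP10 forms the folding chamber of mitochondria, and small heat shock proteins hold unfolded chains without ATP. In the kidney the inducible HSP70 and HSPB1 are known from tubular injury and from the salty, concentrated medulla, while many J-domain proteins serve mitochondria, the endoplasmic reticulum (ER) or vesicle traffic.

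A gene was tested if its signal lay above its own array's median in at least 3 of 12 arrays, and 59 of the 69 genes (38 J-domain, 21 heat shock protein) passed, with 132 probe sets. The 10 that did not pass were Dnajb3, Dnajb7, Dnajb13, Dnajc5b, Dnajc5g, Hspa1l, Hspa12b, Hspb3, Hspb7 and Hspb9. Hspa12b and Hspb7 were above the median in 2 arrays each and the other 8 in none. Hspa1l, the testis HSP70 beside Hspa1a and Hspa1b in the genome, had signals between 0.751 and 4.58, against a common array median of 40.4. Signals are array intensities scaled to that common median, in arbitrary units. Differences are read between arrays for 1 gene, and no level is compared between genes.

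Arrays of 1 group correlated at 0.978 to 0.989 over tested genes. The deposited signals of the 4-week arrays and the 8-week arrays had been brought to different targets (trimmed means of 100 and 500), so age cannot be told apart from the scaling or run of the arrays. All 7 proximal tubule markers were measured above the filter, as renal cortex should give, and 2 of 7 skeletal muscle markers were. So were 5 of 5 annotated inner medulla markers, so passing the filter does not show that the samples held cortex alone. Where the probe sets of a gene are described singly, log2 fold changes are stated with the median of all tested probe sets set to 0. The probe set standing for Dnaja1 had -0.60 at 8 weeks on that scale and -0.56 on the scale of genes. All other log2 fold changes are stated with the median of all tested genes set to 0. That median was -0.18 in log2 units in the strain comparison at 8 weeks, -0.02 at 4 weeks, -0.17 for the difference between these comparisons, 0.09 for the age change in ICR and -0.08 for that in ICGN. Each adjusted p tests the fold change before this median is taken off, so at 8 weeks it belongs to a value 0.18 lower than the one printed beside it. With the arrays centred on the tested genes, so that the test is set on nearly the same footing as the printed fold changes, 24 of the 29 member calls at 8 weeks were kept, and those of Dnajb2, Dnajb6, Dnajb12, Dnajc15 and Hsp90aa1 were not. The same centring kept 4 of 4 calls at 4 weeks.

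Promoter sequence is shown for 9 stress-inducible or ER members described below, chosen after their values and matches were seen, because inducible members are known to be switched on through heat shock elements, inverted repeats of GAA, and ER members through the ER stress response element. RefSeq promoters (GRCm38.p6) were given for 57 of the 69 genes, and the 250 bases before each start were searched on both strands. A pair of repeats was taken as GAANNTTC or TTCNNGAA. It occurred in 14 of the 57 genes (24.6%), against 14.5% of 27025 genes with a promoter. Dnajb1, lower in ICGN at both ages, and Hspb8, higher at 8 weeks, held none of the 3 motifs searched in this window, in either of the listed promoters in the case of Dnajb1. Of the genes shown first, Hspa1a and Hsph1 were lower in ICGN at both ages, Hspa1b at 4 weeks and Dnaja1 at 8 weeks, while Hspb1 was higher at 8 weeks. Capitals mark every matching pair in the stretches below, each written 5′ to 3′ on the gene's own strand.
Hspa1a, chr17:34972228-34972285, minus strand: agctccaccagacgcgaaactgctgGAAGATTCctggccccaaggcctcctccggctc
Hspa1b, chr17:34959310-34959367, minus strand: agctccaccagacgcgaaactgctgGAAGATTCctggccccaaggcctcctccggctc
Hsph1, chr5:149636337-149636394, minus strand: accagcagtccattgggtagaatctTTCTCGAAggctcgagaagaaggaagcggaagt
Dnaja1, chr4:40722319-40722376, plus strand: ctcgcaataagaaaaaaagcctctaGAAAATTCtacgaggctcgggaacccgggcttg
Hspb1, chr5:135887777-135887854, plus strand: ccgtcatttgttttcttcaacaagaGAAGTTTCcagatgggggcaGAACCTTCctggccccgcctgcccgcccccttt

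The stretches of Hspa1a and Hspa1b are letter for letter the same, each with its pair at position -104 from the annotated start. The longer element, in which 1 more unit follows the pair in alternation (GAA, TTC, GAA or TTC, GAA, TTC, with 2 bases between units), occurred in 3 of the 57 genes (Dnajb6, Hspd1 and Hspe1; 5.26%), against 0.514% of all genes. Hspd1 and Hspe1, the mitochondrial HSP60 and HSP10, start from opposite strands of 1 shared stretch, so the same letters stand before both.
Hspd1, chr1:55088034-55088101, minus strand: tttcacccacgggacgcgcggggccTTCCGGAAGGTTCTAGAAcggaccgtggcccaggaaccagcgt
Hspe1, chr1:55088034-55088101, plus strand: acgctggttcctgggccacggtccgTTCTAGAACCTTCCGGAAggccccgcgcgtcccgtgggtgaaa

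The ER stress response element, CCAAT and CCACG with any 9 bases between them, occurred in Dnajc3, Hsp90b1 and Hspa5 (5.26% of the 57 genes, against 0.13% of all genes), and is in capitals for 2 of them, Dnajc3, lower in ICGN at 8 weeks, and Hspa5, which passed at neither age.
Dnajc3, chr14:118937802-118937870, plus strand: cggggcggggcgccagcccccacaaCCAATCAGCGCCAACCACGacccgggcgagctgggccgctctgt
Hspa5, chr2:34772000-34772068, plus strand: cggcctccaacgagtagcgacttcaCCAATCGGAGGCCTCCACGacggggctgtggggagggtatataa
A match is a description of letters, and no binding was measured.

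At 4 weeks, 4 members were lower in ICGN cortex and 0 were higher: the inducible HSP70 genes Hspa1a and Hspa1b, their nucleotide exchange partner Hsph1 and their J-domain partner Dnajb1. That is 4 of 59 tested members, where 1.39% of all 12385 tested genes were lower and 1.6% higher (2.99% in either direction) at an adjusted p of at most 0.05. Lower and higher members were 5 and 0 with centring on the tested genes and with the authors' scaling. After quantile normalization they were 5 and 2, the higher ones being Dnajb9 and Dnajc12. Over all genes the lower and higher calls were 172 and 198, then 257 and 254, 203 and 337, and 224 and 339. The median over the 59 members was -0.04 on the log2 scale, with 0 as the median of all genes. Above 0 lay 22 of the 59 members, which were 16 of 38 J-domain genes and 6 of 21 heat shock protein genes. The 12 tested HSP70 and HSP110 genes had a median of -0.18. At an unadjusted limma p under 0.05, 4 members were higher and 8 lower, where 899 of all 12385 tested genes were higher and 966 lower.

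Hspa1a had scaled signals of 330, 246 and 188 in the 3 ICGN arrays at 4 weeks and 837, 800 and 691 in the 3 ICR arrays. Every ICR array was more than double any ICGN array, and the log2 fold change was -1.58 ± 0.22 (SE, n = 3 per group; adjusted p = 0.000884). Hspa1b had 1910, 1200 and 878 in ICGN and 4100, 4210 and 2430 in ICR, again without overlap, for a log2 fold change of -1.43 ± 0.27 (adjusted p = 0.00822). All 3 tested probe sets of Hspa1b were lower at 4 weeks when each was tested on its own. The 2 genes encode nearly the same protein from near-identical messages, so their probe sets may share signal and are not separate evidence.

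Hsph1, the HSP110 that exchanges nucleotide on HSP70, had 950, 999 and 682 in ICGN and 1460, 1450 and 1370 in ICR at 4 weeks. The groups did not overlap, with a log2 fold change of -0.70 ± 0.16 (adjusted p = 0.0234), and both of its probe sets were lower. Dnajb1, the stress-inducible HSP40, had 835, 840 and 751 in ICGN and 1250, 1160 and 1460 in ICR, a log2 fold change of -0.64 ± 0.16 (adjusted p = 0.0338). Its other probe set did not pass at 4 weeks when tested on its own (adjusted p = 0.165). Dnajb1 lost its call with no filter on dim probe sets (0.0528), without the variance trend (0.0663) and with the mean of probe sets (0.0616). The calls of Hspa1a and Hspa1b held without any 1 array. The call of Dnajb1 was lost without any 1 of the 6 arrays (adjusted p 0.0532 to 0.135), and that of Hsph1 without ICGN replicate 1 or 3 or any ICR array (adjusted p 0.0503 to 0.104). Hence 2 or 3 members were called in place of 4.

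Dnaja1, a cytosolic J-domain partner of HSP70, had 3590, 4100 and 3610 in ICGN and 5610, 5290 and 5830 in ICR at 4 weeks. The groups did not overlap, and the log2 fold change of -0.55 ± 0.15 just missed the threshold (adjusted p = 0.0551), which it passed under each of 3 other scalings (0.0074 to 0.0111). Hspa8, the constitutive HSP70, had 2500, 2490 and 1860 in ICGN and 3380, 3240 and 3960 in ICR, with a log2 fold change of -0.62 ± 0.21 (adjusted p = 0.142). Hspb8 had 107, 112 and 88 in ICGN and 72.7, 68.2 and 67.2 in ICR, the opposite order, with a log2 fold change of 0.51 ± 0.16 (adjusted p = 0.116). Groups did not overlap for 20 of 59 members (33.9%) at 4 weeks, against 22.8% of all tested genes.

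**Figure D1:**
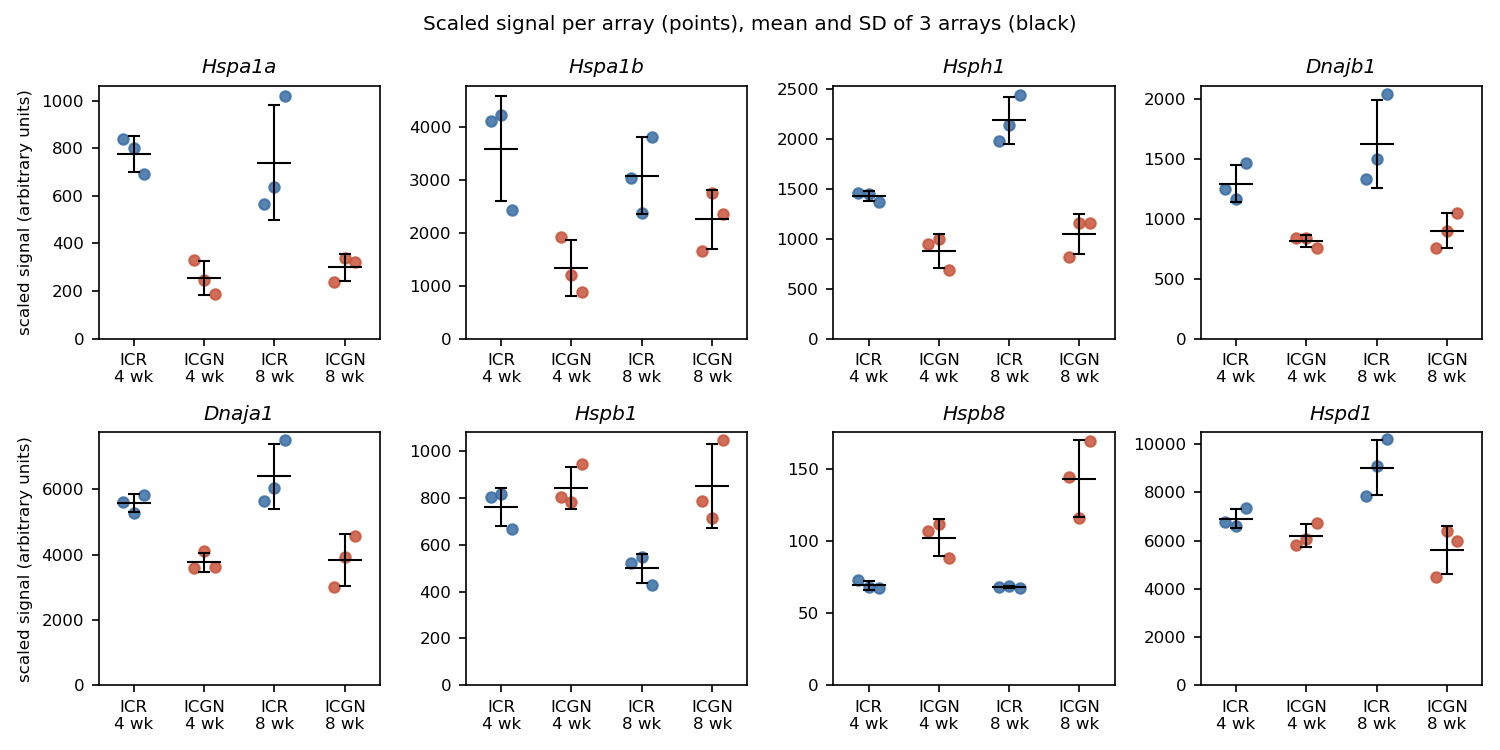
Scaled signal (arbitrary units) of 8 members in the 12 arrays; each point is 1 array, blue for ICR and red for ICGN, and black bars give the mean and SD of 3 arrays. Hspa1a lies between 188 and 339 in the 6 ICGN arrays and between 566 and 1020 in the 6 ICR arrays, while Hspb1 and Hspb8 are higher in ICGN at 8 weeks.

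At 8 weeks, 27 of the 59 members were lower in ICGN cortex and 2 were higher. Of all tested genes, 26% were lower and 8.49% higher at the same threshold, so the cortex as a whole held many lower genes at this age. At an unadjusted limma p under 0.05, 4147 of the 12385 tested genes were lower and 1392 higher. The median of the members was -0.17 relative to the median gene. J-domain genes gave 21 of the 27 lower calls (21 of 38 tested, median -0.23, with 0 higher by limma at either an adjusted or an unadjusted p of 0.05), and heat shock protein genes 6 (6 of 21 lower, 2 higher, median -0.10). The split depends on how the arrays are scaled: 22 lower and 3 higher when arrays were centred on the tested genes, 14 and 5 after quantile normalization, and 15 and 6 with the authors' scaling. Over all genes the lower and higher calls were 3225 and 1052, then 2423 and 1586, 1669 and 1698, and 1488 and 2232 under the same settings. Of the 29 calls, 15 held under all 4 scalings.

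**Figure D2:**
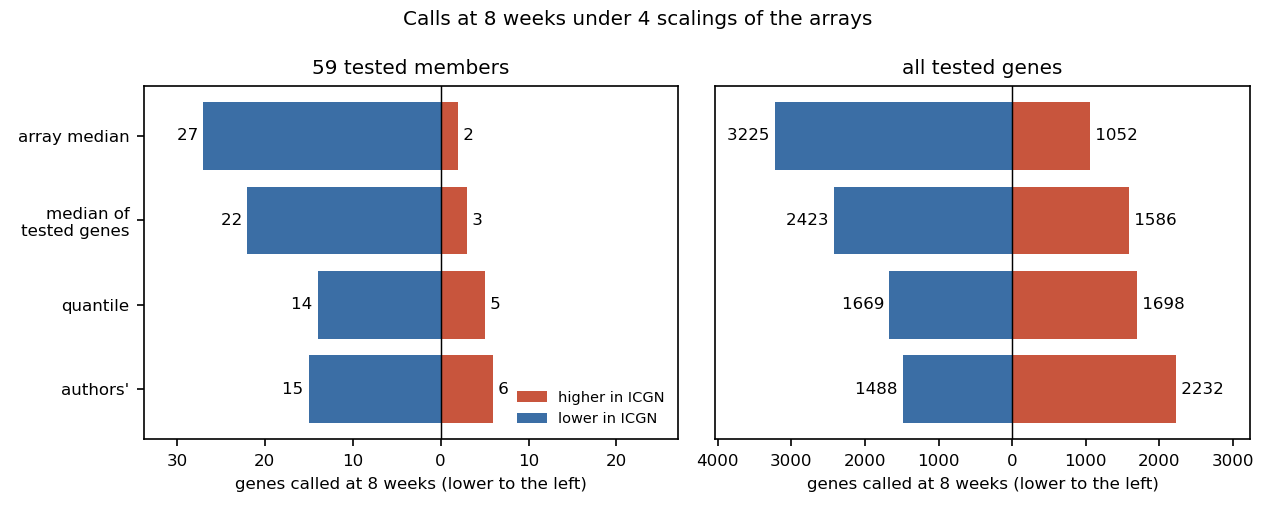
Number of genes called at 8 weeks under 4 scalings, for the 59 tested members (left panel) and for all tested genes (right panel); blue bars to the left count those below ICR and red bars to the right those above. The members keep more lower than higher calls under each scaling (27 and 2 down to 14 and 5), while over all genes lower calls outnumber higher ones under 2 of the 4.

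Groups did not overlap for 34 of 59 members (57.6%), 31 of them with every ICGN array below every ICR array, against 44.5% of all tested genes. In bulk cortex, fewer cells of a type and less RNA per cell cannot be told apart. Proximal tubule markers were lower for 6 of 7 genes at 8 weeks, with summed signals of 26200 to 33100 in ICGN and 44300 to 54400 in ICR (exact permutation p = 0.1, two-sided, the smallest that 3 against 3 arrays allow). Macrophage and dendritic cell markers were higher for 10 of 11 genes, with sums of 6760 to 8490 in ICGN and 3200 to 4430 in ICR (exact p = 0.1). At 4 weeks these sums were 33000 to 42800 against 39800 to 46100 for proximal tubule (exact p = 0.3; 0 of 7 lower), and 3750 to 4310 against 2240 to 3070 for macrophages (exact p = 0.1; 6 of 11 higher). Endothelial markers were lower for 5 of 6 genes at 8 weeks, with sums of 2020 to 2420 in ICGN and 3010 to 3620 in ICR (exact p = 0.1), and for 0 of 6 at 4 weeks (2750 to 3050 against 2770 to 3040, exact p = 0.8). Loop, distal tubule and collecting duct sums lay below those of ICR without overlap in ICGN at 4 weeks (22100 to 27900 against 28100 to 33900; 2 of 8 genes lower) and at 8 weeks (15400 to 20600 against 22100 to 25300; 3 of 8 lower), both with an exact p of 0.1. Podocyte sums of ICGN lay above those of ICR at 4 weeks (2240 to 2380 against 1780 to 2030, exact p = 0.1; 0 of 5 genes passed limma, and 2 were higher at an unadjusted p under 0.05). At 8 weeks they overlapped (1680 to 1900 against 1790 to 1960, exact p = 0.5; 1 of 5 higher). Blood and erythroid sums of ICGN lay below at both ages (468 to 722 against 877 to 929, then 223 to 237 against 364 to 447, exact p = 0.1 each). Lymphocyte and plasma cell sums of ICGN lay above at 4 weeks (410 to 549 against 296 to 353, exact p = 0.1) and below at 8 weeks (1050 to 1170 against 1220 to 3950, exact p = 0.1). Inner medulla sums overlapped at 4 weeks (338 to 665 in ICGN, 442 to 802 in ICR, exact p = 0.4) and at 8 weeks (348 to 718, 321 to 762, exact p = 0.8). Adipocyte sums overlapped too (2140 to 3310 against 3000 to 5050, then 1410 to 2720 against 2080 to 4060, exact p = 0.2 each). So did adrenal sums (120 to 196 against 99.4 to 164, exact p = 0.5, then 82 to 151 against 145 to 216, exact p = 0.3). The part of these cell types and tissues in the results was not tested.

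Among the HSP70 and HSP110 genes, 2 of 12 were lower at 8 weeks and 0 higher by the probe set standing for each gene. These 2, Hspa1a and Hsph1, were already lower at 4 weeks. When every probe set was tested, 2 of 5 of Hspa4l and 1 of 4 of Hspa13 were also lower. The ones standing for these genes did not pass (log2 0.18 and 0.29 relative to the median gene). Hspa1a had 236, 339 and 323 in ICGN and 566, 638 and 1020 in ICR, without overlap, for a log2 fold change of -1.06 ± 0.22 (adjusted p = 0.000614). Hsph1 had 812, 1160 and 1160 in ICGN and 1980, 2140 and 2440 in ICR, a gap wider than at 4 weeks in the signals, with a log2 fold change of -0.89 ± 0.16 (adjusted p = 0.000207). The strain differences at 8 and 4 weeks did not pass the test of their own difference for either gene (log2 0.52 ± 0.31, adjusted p = 0.49, for Hspa1a; -0.18 ± 0.23, adjusted p = 0.336, for Hsph1).

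Hspa1b at 8 weeks had 1650, 2750 and 2350 in ICGN and 3030, 2360 and 3810 in ICR. The groups overlapped, and the log2 fold change of -0.27 ± 0.27 did not pass (adjusted p = 0.217). Its other 2 tested probe sets were lower at 8 weeks when every probe set was tested on its own, with log2 fold changes of -0.60 and -0.51. The strain difference of Hspa1b was 1.17 ± 0.39 less negative at 8 than at 4 weeks, and this did not pass the test either (adjusted p = 0.118).

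The HSP70 genes that serve unstressed cells showed small differences that did not pass at 8 weeks. Hspa5, the HSP70 of the ER, had 4540, 4440 and 6590 in ICGN and 5910, 5880 and 6900 in ICR (log2 -0.10 ± 0.15, adjusted p = 0.164). Hspa9, the mitochondrial HSP70, had 2480, 3940 and 3840 in ICGN and 4140, 3380 and 4810 in ICR (log2 -0.10 ± 0.18, adjusted p = 0.248). Hspa8 had 2670, 3260 and 4730 in ICGN and 5060, 3210 and 5410 in ICR (log2 -0.18 ± 0.21, adjusted p = 0.199). Further probe sets of these genes passed: 2 of the 4 tested for Hspa8 (log2 -0.51 and -0.48, both of a design that can bind related messages) and 1 of the 5 tested for Hspa9 were lower.

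Of the 2 HSP90 genes, Hsp90aa1, the inducible cytosolic form, had 3620, 4920 and 5260 in ICGN and 5920, 5400 and 7590 in ICR at 8 weeks. Its log2 fold change was -0.27 ± 0.17 relative to the median gene and -0.46 before that shift, and the latter was close to the threshold (adjusted p = 0.0479). With arrays centred on the tested genes it did not pass (adjusted p = 0.0859). It lost the call in 7 of 12 other settings and without ICGN replicate 1 or 2 or ICR replicate 1 or 3 (adjusted p 0.062 to 0.205). Hsp90b1, the HSP90 of the ER, had 2680, 3490 and 3850 in ICGN and 3320, 2960 and 3710 in ICR, with overlapping groups. Its log2 fold change was 0.18 ± 0.14 relative to the median gene and -0.01 before that shift (adjusted p = 0.976 for the latter), and it did not pass with arrays centred on the tested genes either (adjusted p = 0.419). Hsp90b1 was called higher in ICGN after quantile normalization and with the authors' scaling.

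Both partners of the mitochondrial folding chamber, whose shared promoter is printed above, were lower in ICGN at 8 weeks. Hspd1 had 4500, 6380 and 5970 in ICGN and 7850, 9080 and 10200 in ICR, without overlap, for a log2 fold change of -0.51 ± 0.14 (adjusted p = 0.00181). Hspe1 had 3500, 4680 and 4360 in ICGN and 5480, 5830 and 7050 in ICR, again without overlap, for -0.37 ± 0.13 (adjusted p = 0.00553). The call of Hspe1 was lost after quantile normalization. At 4 weeks the same genes had log2 fold changes of -0.14 ± 0.14 (adjusted p = 0.688) and -0.04 ± 0.13 (adjusted p = 0.898).

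By the probe set standing for each gene and with the common median, the small heat shock proteins gave the only 2 higher member calls at 8 weeks. They also gave 1 lower call, and 2 did not pass. Hspb8, which works with BAG3 to send damaged proteins to autophagy, had 145, 116 and 170 in ICGN and 68, 68.6 and 67.4 in ICR. Its ICR arrays lay close together, below every ICGN array, and the log2 fold change was 1.14 ± 0.16 (adjusted p = 0.000389). Hspb1, the HSP27 orthologue that also binds actin filaments, had 787, 715 and 1050 in ICGN and 523, 547 and 429 in ICR, for 0.93 ± 0.15 (adjusted p = 0.00183). Both calls held under every setting tried and without any 1 array, and 2 of 2 probe sets of Hspb1 and 2 of 3 of Hspb8 were higher when tested on their own.

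Hspb6, a small heat shock protein of muscle, had 71.7, 80.6 and 99.1 in ICGN and 149, 120 and 129 in ICR at 8 weeks, lower by log2 -0.42 ± 0.17 (adjusted p = 0.0148). The call was lost without ICGN replicate 1 (adjusted p = 0.0664) or ICR replicate 1 (0.0516) and with the authors' scaling. Smooth muscle and pericyte markers had sums of 3920 to 4000 in ICGN and 3320 to 3520 in ICR (exact permutation p = 0.1; 2 of 7 higher, 1 lower). Hspb11, a subunit of the particles that carry cargo in cilia, had 257, 259 and 338 in ICGN and 232, 195 and 232 in ICR (log2 0.53 ± 0.14, or 0.35 before the median gene's shift, adjusted p = 0.0668 for the latter), and was higher under the 3 other scalings.

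All 4 DNAJA genes, the group built like bacterial DnaJ, were lower at 8 weeks by the probe set standing for each gene. Dnaja2 lost its call after quantile normalization, with the authors' scaling, with the mean of probe sets and with only the 2 groups compared. When every probe set was tested, 2 of 3 of Dnaja1, 1 of 4 of Dnaja2, 1 of 2 of Dnaja3 and 3 of 3 of Dnaja4 were lower. The others of Dnaja2 lay at log2 -0.04, -0.01 and -0.05 relative to the median probe set. Dnaja1 had 3010, 3920 and 4570 in ICGN and 5650, 6030 and 7520 in ICR, for a log2 fold change of -0.56 ± 0.15 (adjusted p = 0.00162). Dnaja3, the mitochondrial member, had 991, 1370 and 1300 in ICGN and 1860, 1820 and 2400 in ICR, for -0.55 ± 0.14 (adjusted p = 0.00104). Dnaja4 had 210, 228 and 332 in ICGN and 334, 423 and 547 in ICR, for -0.55 ± 0.20 (adjusted p = 0.0101). In these 3 genes every ICGN array lay below every ICR array, narrowly for Dnaja4, whose call was lost without ICGN replicate 1 (adjusted p = 0.054) or ICR replicate 3 (0.0566). Dnaja2 had a log2 fold change of -0.25 ± 0.12 relative to the median gene and of -0.43 before that shift (adjusted p = 0.0124 for the latter, and 0.0103 with arrays centred on the tested genes), and without ICR replicate 3 the call was lost (0.0578).

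Among the DNAJB genes, 5 of 10 were lower and 0 higher at 8 weeks. Dnajb1 had 756, 892 and 1050 in ICGN and 1330, 1500 and 2040 in ICR, with a log2 fold change of -0.65 ± 0.16 (adjusted p = 0.00117) that equalled the one at 4 weeks within its error. The other 4 (Dnajb2, Dnajb12, Dnajb11 and Dnajb6) had log2 fold changes between -0.33 and -0.20, and none of the 4 held under all scalings. Dnajb9 (log2 0.09 ± 0.14, or -0.09 before the median gene's shift, adjusted p = 0.63) and Dnajb4 (0.29 ± 0.17, or 0.11 before it, adjusted p = 0.644) did not pass. Quantile normalization called Dnajb9 higher. Dnajb9 encodes an ER J-domain protein that restrains the stress sensor IRE1.

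**Figure D3:**
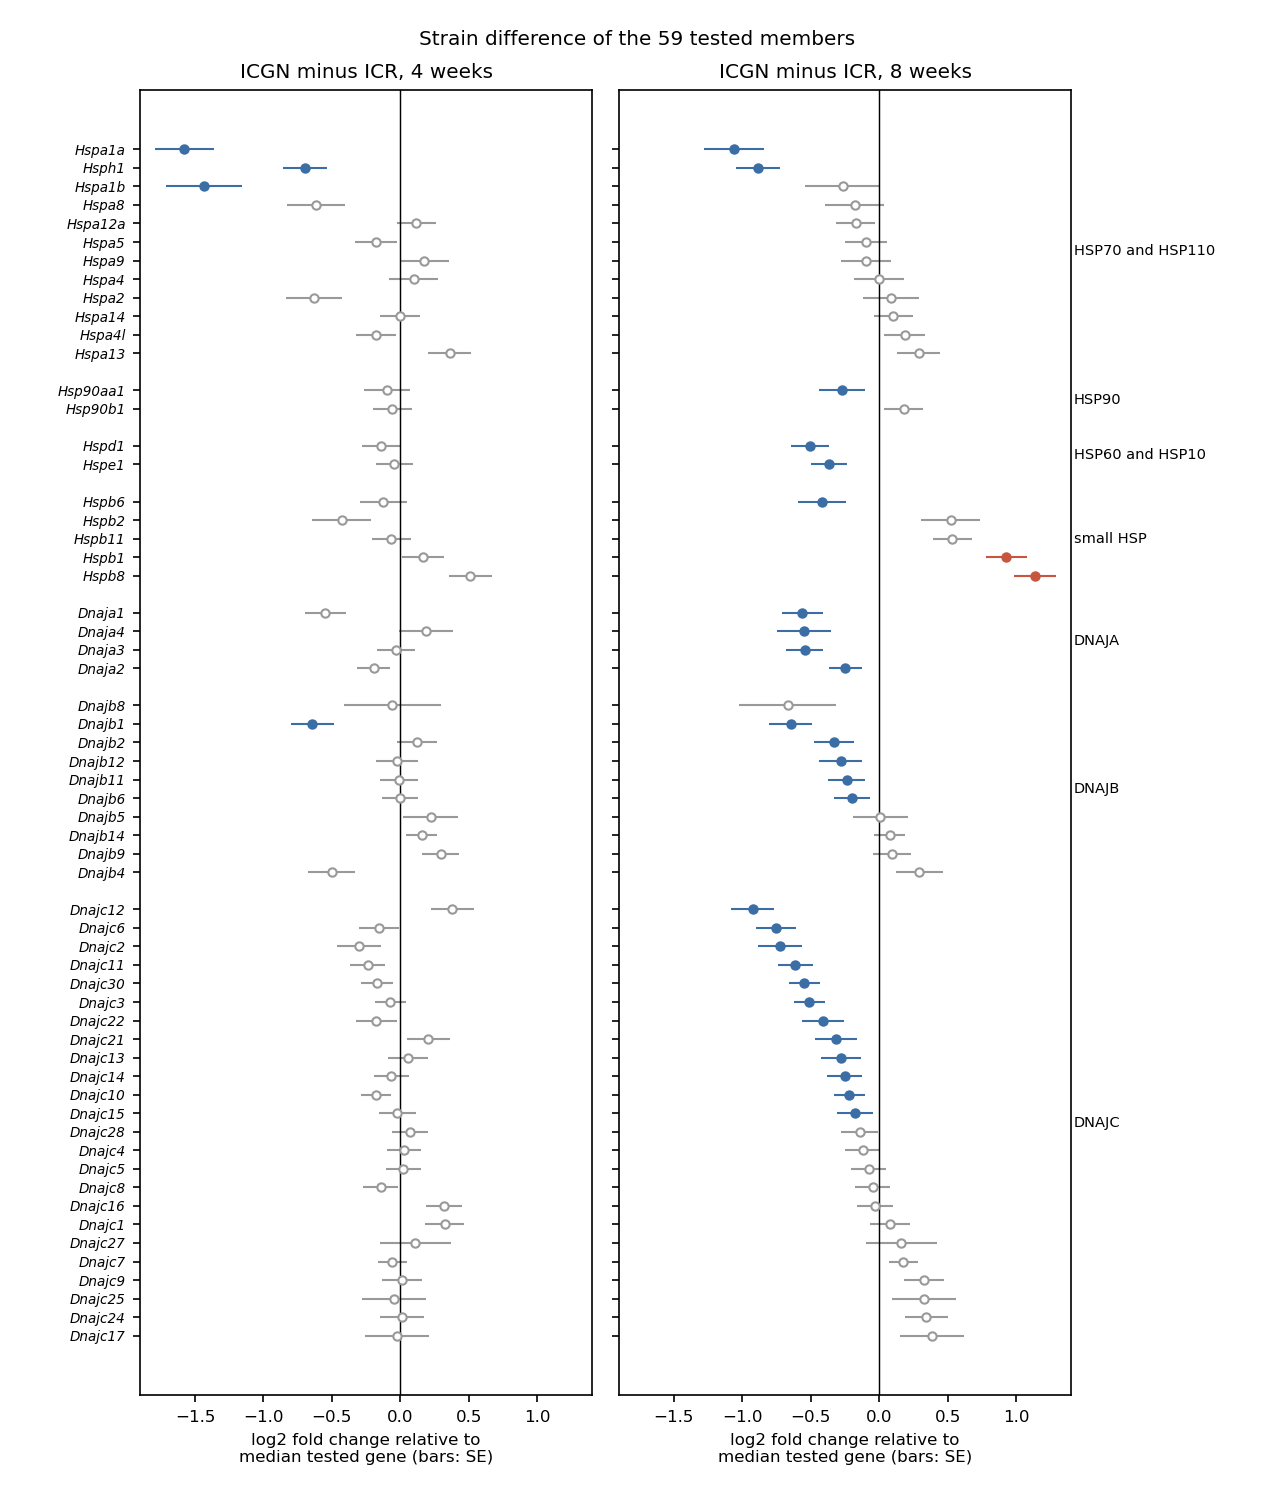
Log2 fold change of ICGN over ICR relative to the median tested gene, with SE bars, for the 59 tested members at 4 weeks (left) and 8 weeks (right), grouped by class; filled points passed an adjusted p of 0.05 (blue lower, red higher in ICGN) and open points did not. Filled points number 4 at 4 weeks and 29 at 8 weeks, and Hspb1 and Hspb8 are the 2 red ones.

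The DNAJC genes, which share little beyond the J domain, gave 12 lower and 0 higher calls among 24 tested at 8 weeks by the probe set standing for each gene. When every probe set was tested, 1 of 5 of Dnajc5 was higher. Lower were 2 of 2 each of Dnajc2, Dnajc6 and Dnajc11, 2 of 3 of Dnajc14 and 2 of 5 of Dnajc3. Of Dnajc1, Dnajc10 and Dnajc21, 1 of 3 each was lower, and of Dnajc13 and Dnajc22 1 of 2 each. Dnajc12, a partner of the aromatic amino acid hydroxylases, had 2320, 3680 and 3420 in ICGN and 6970, 6380 and 6610 in ICR. Every ICR array exceeded every ICGN array by over 1.5 times, and the log2 fold change was -0.92 ± 0.16 (adjusted p = 0.000141). Dnajc6, the auxilin that strips clathrin from vesicles, had 343, 493 and 525 in ICGN and 877, 790 and 935 in ICR, for -0.76 ± 0.15 (adjusted p = 0.000276). Dnajc2, a ribosome-bound partner of HSP70, had 255, 370 and 380 in ICGN and 640, 574 and 678 in ICR, for -0.73 ± 0.16 (adjusted p = 0.000725). None of these 3 genes had overlapping groups, and all 3 calls held under every setting and without any 1 array.

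A further 3 DNAJC genes kept their call in the same way. Dnajc11, which sits at mitochondrial membranes with the cristae-shaping complex, had 221, 266 and 280 in ICGN and 464, 422 and 468 in ICR, for -0.61 ± 0.13 (adjusted p = 0.000326). Dnajc30, another mitochondrial member, had 698, 730 and 654 in ICGN and 1020, 1190 and 1290 in ICR, for -0.55 ± 0.11 (adjusted p = 0.000264). Dnajc3, an ER co-chaperone of HSPA5 that carries the ER stress response element printed above, had 1100, 1340 and 1380 in ICGN and 1950, 2050 and 2170 in ICR, for -0.51 ± 0.11 (adjusted p = 0.000312). Hspa5, with the same element, had a log2 fold change of -0.10 and Hsp90b1 of 0.18, and neither passed with arrays scaled to the common median. Hsp90b1 was called higher under other scalings, as given above. The remaining 6 lower calls (Dnajc22, Dnajc21, Dnajc13, Dnajc14, Dnajc10 and Dnajc15) lay between -0.41 and -0.17, and each lost the call under at least 1 other scaling. With the mean of its probe sets, Dnajc13 had a log2 fold change of 0.03 (adjusted p = 0.528), the other sign.

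The other 12 tested DNAJC genes had log2 fold changes between -0.14 and 0.38 and did not pass with arrays scaled to the common median. With the authors' scaling, Dnajc7 and Dnajc9 were called higher. By compartment, a grouping made after the values were seen and given with no test, 6 of 8 mitochondrial members were lower at 8 weeks (median -0.44, range -0.61 to -0.10). Of 12 ER members, 5 were lower (median -0.07, range -0.51 to 0.29), where 26% of all tested genes were lower. Without ICGN replicate 1 or without ICR replicate 3, the 27 lower calls over all classes were 17 each, and the 2 higher calls stayed 2. Of the 29 calls, 14 held under all settings and without any 1 array: Dnaja1, Dnaja3, Dnajb1, Dnajc2, Dnajc3, Dnajc6, Dnajc11, Dnajc12, Dnajc30, Hspa1a, Hspd1 and Hsph1 were lower, and Hspb1 and Hspb8 higher.

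In all, 3 members were lower in ICGN at both ages: Hspa1a, Hsph1 and Dnajb1. The 2 comparisons share no array. The test of whether the strain difference itself differed between the ages was passed by 4 members, all more negative at 8 weeks. Of all genes, 5.68% were more negative and 2.21% more positive (7.9% in all). At an unadjusted limma p under 0.05, 15 members were more negative and 5 more positive. At that threshold 2429 of all 12385 genes were more negative and 801 more positive. Dnajc12 moved most, from a log2 fold change of 0.38 ± 0.16 at 4 weeks, with signals of 3350, 3730 and 4230 in ICGN and 2640, 2830 and 3330 in ICR, to -0.92 at 8 weeks. The difference was -1.30 ± 0.23 (adjusted p = 0.00314), and it passed under every setting and without any 1 array. At 4 weeks the strain difference of Dnajc12 did not itself pass (adjusted p = 0.291), and quantile normalization called the gene higher.

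Dnajc6 (490, 466 and 521 in ICGN and 516, 537 and 621 in ICR at 4 weeks) differed by -0.59 ± 0.21 between the ages (adjusted p = 0.0373). Dnaja3 (1220, 1310 and 1300 in ICGN and 1330, 1310 and 1330 in ICR at 4 weeks) differed by -0.51 ± 0.19 (adjusted p = 0.0447). Dnajc3 (1090, 1080 and 1120 in ICGN and 1160, 1160 and 1190 in ICR at 4 weeks) differed by -0.43 ± 0.16 (adjusted p = 0.0299). All 3, by the probe set standing for each gene, had near-equal signals in the strains at 4 weeks and lower ones in ICGN at 8 weeks. The other tested probe set of Dnaja3 had log2 fold changes of -0.31 at 4 weeks and -0.23 at 8 weeks, and 0.08 for the difference. With the mean of probe sets, none of Dnaja3, Dnajc3 and Dnajc6 passed (limma adjusted p 0.293, 0.29 and 0.122). Their calls depended on single arrays: leaving out any 1 of ICGN replicates 1 to 3 at 4 weeks, ICR replicates 1 or 2 at 4 weeks or ICR replicate 3 at 8 weeks lost all 3 (adjusted p 0.058 to 0.105). Dnaja3 was also lost without ICR replicate 3 at 4 weeks (0.0713), Dnaja3 and Dnajc6 without ICGN replicate 1 at 8 weeks (0.082 and 0.0596), and Dnajc6 without ICR replicate 1 at 8 weeks (0.0526). In number, the 4 calls became 1 without any of the ICGN arrays at 4 weeks, without ICR replicate 2 at 4 weeks or without ICR replicate 3 at 8 weeks, each left out alone. They became 2 without ICR replicate 1 at 4 weeks. Other scalings gave 2 more negative and 2 more positive members (quantile normalization) or 4 and 2 (centring on the tested genes), where the 2 more positive were Dnajb4 and Hspb1. Over all genes the more negative and more positive calls were 704 and 274, then 412 and 484, and 628 and 531.

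**Figure D4:**
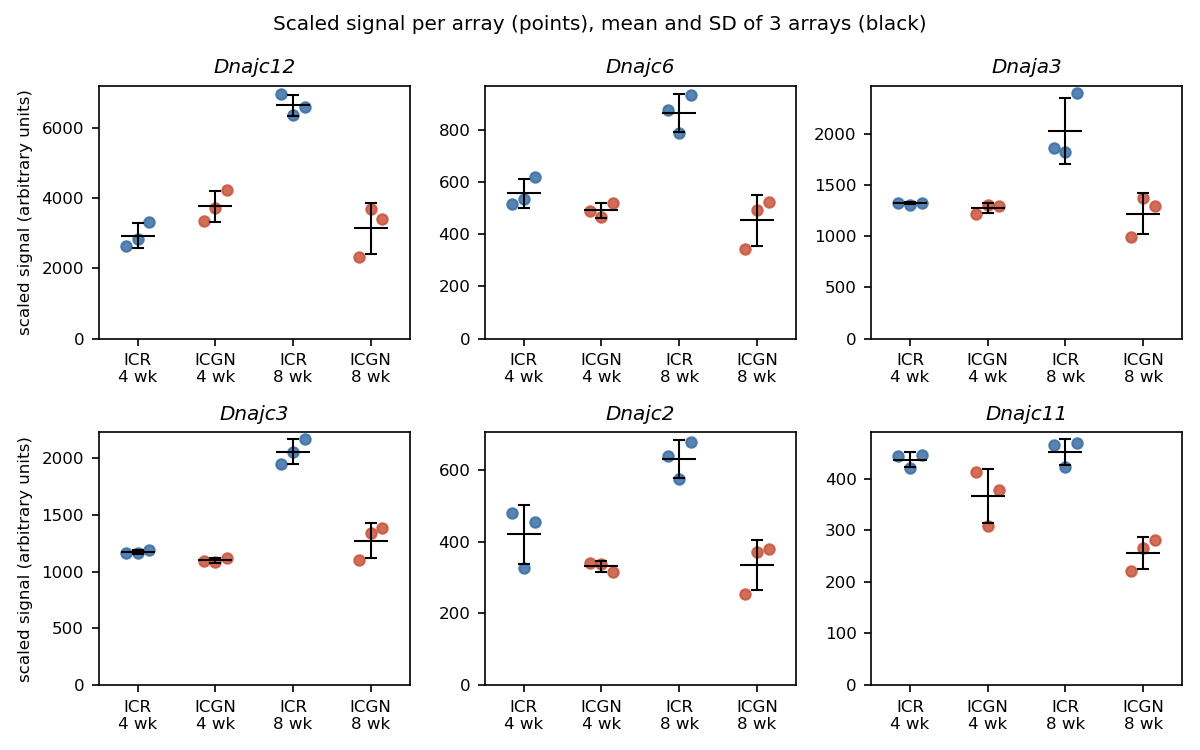
Scaled signal (arbitrary units) of 6 J-domain genes in the 12 arrays; each point is 1 array, blue for ICR and red for ICGN, and black bars give the mean and SD of 3 arrays. Dnajc12 lies between 6380 and 6970 in ICR at 8 weeks and at or below 4230 in the other 3 groups.

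Within ICR, 14 members were higher at 8 than at 4 weeks and 4 were lower, where 18% of all genes were higher and 10.7% lower. The age changes use the common median, and no strain comparison removes the difference of scaling or run between the ages. By the probe set standing for each gene, the J-domain genes gave 13 of the 14 higher calls. When every probe set was tested, 4 of 5 of Hspa4l, 2 of 4 of Hspa13 and 2 of 5 of Hspa9 were also higher. In the same test 1 each of Hsp90b1, Hspa12a and Hspa8 was lower. With centring on the tested genes, Hspa9 and Hspd1 were also called higher and Hspa12a lower. Dnajc12 rose from 2640, 2830 and 3330 to 6970, 6380 and 6610, a log2 fold change of 1.10 ± 0.16 (adjusted p = 7.63e-05). By the probe set standing for each gene, no other member rose as far. A probe set of Dnajc21 that does not stand for the gene rose farther, from 94.4, 118 and 148 to 405, 351 and 374. Dnaja4 rose from 304, 204 and 202 to 334, 423 and 547 (log2 0.76 ± 0.20, adjusted p = 0.00519), and Dnajc3 from 1160, 1160 and 1190 to 1950, 2050 and 2170 (0.72 ± 0.11, adjusted p = 9.08e-05).

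The ER members Dnajb9 and Dnajc1 rose by log2 0.68 ± 0.14 (adjusted p = 0.00074) and 0.67 ± 0.14 (adjusted p = 0.00125). Dnajb9 went from 1460, 1350 and 1730 to 2490, 2400 and 2820 in ICR, and Dnajc1 from 246, 220 and 228 to 411, 348 and 439. Neither gene had overlapping groups, as held for 27 of 59 members (45.8%) in this comparison and 42% of all tested genes. The remaining higher calls ran from 0.24 to 0.59, and 1 of the 14 was a heat shock protein gene, Hsph1 (0.52 ± 0.16, adjusted p = 0.0114), lost without ICR replicate 3 at 8 weeks (0.0504) and after quantile normalization.

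In ICR, 3 of the 5 tested small heat shock proteins were lower at 8 than at 4 weeks. Hspb2, a small heat shock protein of muscle, fell from 88.9, 63.6 and 64.6 to 41.5, 30.2 and 27.3 (log2 -1.01 ± 0.21, adjusted p = 0.00503). Hspb11 fell from 406, 292 and 331 to 232, 195 and 232 (-0.70 ± 0.14, adjusted p = 0.00495), and Hspb1 from 804, 816 and 668 to 523, 547 and 429 (-0.69 ± 0.15, adjusted p = 0.00826). These 3 calls held under every setting and without any 1 array. Dnajc9, a histone co-chaperone, was lower too (-0.61 ± 0.15, adjusted p = 0.0139), a call lost without ICR replicate 3 at 4 weeks (0.0549) or replicate 2 at 8 weeks (0.0628). Smooth muscle and pericyte marker sums in ICR were 7170 to 7290 at 4 weeks and 3320 to 3520 at 8 weeks, and their part in the result was not tested.

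Other scalings gave 11 higher and 6 lower members in ICR (quantile normalization) or 17 and 5 (centring on the tested genes). Over all genes the higher and lower calls were 2228 and 1328, then 1721 and 2088, and 2310 and 1781. Leaving out ICR replicate 3 at 8 weeks left 8 of the 14 higher calls in number, and leaving out ICR replicate 2 at 4 weeks left 9. This comparison and the strain comparison at 8 weeks use the same 3 ICR arrays at 8 weeks. The 4 probe sets of Dnaja2 went apart in this comparison, with 1 higher (log2 0.62) and 1 lower (-1.13).

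Within ICGN, 1 member was higher at 8 than at 4 weeks and 6 were lower, where 6.35% of all genes were higher and 12.8% lower. Dnajb4, an HSP40 of the DNAJB group, rose from 523, 486 and 491 to 742, 675 and 1150 (log2 0.80 ± 0.17, adjusted p = 0.00809), while in ICR it was 682, 667 and 825 and then 667, 797 and 863. Its strain differences at the 2 ages did not pass the test of their difference (0.80 ± 0.24, adjusted p = 0.114). Hspa12a, a distant HSP70 relative, fell from 196, 211 and 172 to 93.2, 116 and 115 (-0.70 ± 0.14, adjusted p = 0.00173). Dnajc16 fell from 206, 218 and 203 to 109, 146 and 116 (-0.64 ± 0.13, adjusted p = 0.00173), and Hspb6 from 148, 142 and 132 to 71.7, 80.6 and 99.1 (-0.61 ± 0.17, adjusted p = 0.0118). The groups did not overlap in these 4 genes. That held for 13 of 59 members (22.0%) in all, against 37.9% of all tested genes. Smooth muscle and pericyte marker sums in ICGN were 6730 to 8590 at 4 weeks and 3920 to 4000 at 8 weeks, with 5 of 7 markers lower, and their part in the fall of Hspb6 was not tested.

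The other 3 lower calls in ICGN were all mitochondrial members and all rested on single arrays. Dnajc11 fell from 412, 309 and 377 to 221, 266 and 280 (-0.42 ± 0.13, adjusted p = 0.0135), a call lost without ICGN replicate 1 at 4 weeks (0.0765) or at 8 weeks (0.0517). Dnajc15, which sits in the inner mitochondrial membrane, fell from 1900, 1890 and 1820 to 1240, 1360 and 1530 (-0.36 ± 0.13, adjusted p = 0.0278), kept only without ICGN replicate 3 at 8 weeks (otherwise 0.0551 to 0.0859). Hspe1 fell from 5140, 5790 and 5510 to 3500, 4680 and 4360 (-0.32 ± 0.13, adjusted p = 0.0485), kept only without ICGN replicate 2 at 8 weeks (otherwise 0.06 to 0.156). Other scalings gave 8 higher and 7 lower members (quantile normalization) or 8 and 6 (centring on the tested genes), and over all genes higher and lower calls of 787 and 1584, then 1301 and 1944, and 1374 and 1438. By the probe set standing for each gene and arrays scaled to the common median, 0 members were higher with age in both strains and 0 lower. Under quantile normalization, and also with centring on the tested genes, Dnajb6, Dnajb9, Dnajc1 and Dnajc3 were higher in both strains. Lower in both strains were Dnajc9 and Dnajc15 under quantile normalization and Hspa12a with centring. When every probe set was tested, the 2 of Dnajb1 differed: the one standing for the gene did not pass (log2 0.23 in ICR and 0.19 in ICGN), and the other was lower with age in both strains (-0.70 and -0.88).

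**Figure D5:**
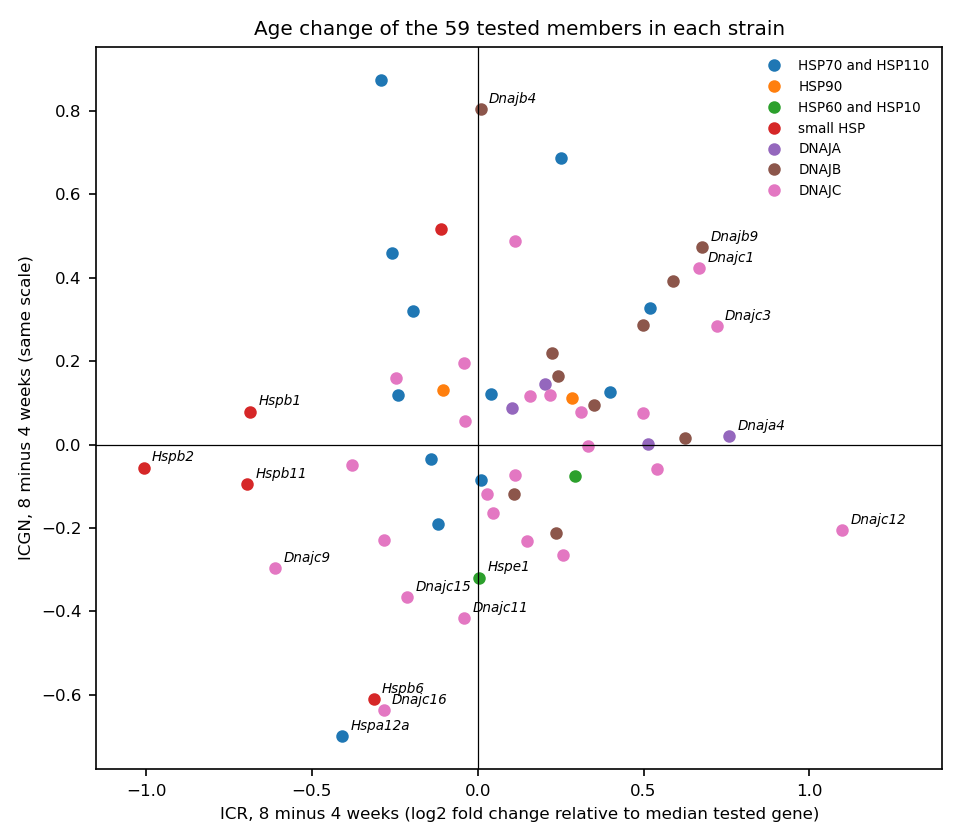
Change from 4 to 8 weeks in ICR (horizontal axis) and in ICGN (vertical axis), as log2 fold change relative to the median tested gene, for the 59 tested members coloured by class; named points are those called in ICGN and those called in ICR with a change over 0.6 in size. Dnajc12 stands at 1.10 in ICR and -0.21 in ICGN, and Hspb1, Hspb2 and Hspb11 lie at the far left with ICGN changes between -0.09 and 0.08.

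The partners of the members were read from lists that hold no member. Of 35 tested co-chaperones of HSP70 and HSP90, 19 were lower and 1 higher in ICGN at 8 weeks (median -0.24), and 1 was higher and 0 lower at 4 weeks (median -0.05; at an unadjusted limma p under 0.05, 1 higher and 3 lower). Of all tested genes, 26% were lower and 8.49% higher at 8 weeks. Under other scalings the lower and higher co-chaperones at 8 weeks were 16 and 2 (centring on the tested genes), 11 and 3 (quantile normalization) and 10 and 3 (the authors' scaling). The higher one was Bag2, which slows the ubiquitin ligase CHIP and exchanges nucleotide on HSP70. It had 349, 315 and 458 in ICGN and 142, 178 and 161 in ICR at 8 weeks (log2 1.34 ± 0.16, adjusted p = 9.83e-05), and 456, 466 and 360 against 235, 198 and 265 at 4 weeks (0.87 ± 0.16, adjusted p = 0.0079). No ICGN array overlapped an ICR array at either age.

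The lower co-chaperones with the largest changes were Ahsa2, Fkbp4 and Sil1. Ahsa2, related to the activator of the HSP90 ATPase, had 181, 231 and 234 in ICGN and 459, 409 and 572 in ICR at 8 weeks (log2 -0.93 ± 0.14, adjusted p = 6.16e-05). Fkbp4, the immunophilin FKBP52 of steroid receptor complexes, had 431, 480 and 499 in ICGN and 753, 927 and 976 in ICR (-0.71 ± 0.12, adjusted p = 8.9e-05). Sil1, which exchanges nucleotide on HSPA5 in the ER, had 219, 266 and 310 in ICGN and 417, 454 and 539 in ICR (-0.62 ± 0.15, adjusted p = 0.000861). Bag3, the partner of Hspb8 that is itself heat-inducible, was lower by -0.29 ± 0.15 relative to the median gene (-0.48 before that shift, adjusted p = 0.0218 for the latter), opposite to Hspb8.

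Of the cytosolic TRiC chaperonin and prefoldin subunits, 7 of 14 were lower and 0 higher at 8 weeks (median -0.13), and 0 of the 14 passed limma's test at 4 weeks (at an unadjusted p under 0.05, 1 lower). The 7 lower became 5, 0 and 2 under the same 3 scalings, with 0, 1 and 0 higher. Of 23 genes of ER folding and quality control, 9 were lower and 1 higher at 8 weeks (median -0.13), and 0 passed at 4 weeks (unadjusted, 1 higher and 3 lower). Here the lower and higher genes at 8 weeks were 8 and 1, 5 and 5, and 8 and 3 under those scalings. The higher one was Serpinh1, the collagen chaperone HSP47, with 967, 1160 and 1290 in ICGN and 771, 983 and 891 in ICR, overlapping at the edges (log2 0.54 ± 0.13 relative to the median gene, 0.36 before that shift, adjusted p = 0.0479 for the latter). Syvn1 and P4hb were lower by log2 -0.55 ± 0.13 (adjusted p = 0.000626) and -0.50 ± 0.12 (adjusted p = 0.00055). They encode the ER ubiquitin ligase HRD1 and a protein disulphide isomerase.

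Of the heat shock factors and their binding partners, 2 of 5 annotated genes were tested. Hsf2bp, named for binding HSF2, had 239, 326 and 295 in ICGN and 670, 848 and 880 in ICR at 8 weeks (log2 -1.26 ± 0.17, adjusted p = 3.1e-05). Of 6 other heat-inducible or crystallin genes, 3 were lower at 8 weeks (Clpb, Lonp1 and Sqstm1) and 0 higher. The haem oxygenase Hmox1 was the 1 gene of this list higher at 4 weeks, with 1370, 1690 and 419 in ICGN and 123, 61.6 and 101 in ICR (3.31 ± 0.39, adjusted p = 0.000444), while the inducible HSP70 genes were lower in the same arrays. At 8 weeks it had 156, 219 and 282 in ICGN and 209, 195 and 337 in ICR (0.02 ± 0.39, adjusted p = 0.772).

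Genes that respond to the handling of tissue were followed beside these results. At 8 weeks, 7 of 12 tested immediate early genes were higher and 0 lower in ICGN cortex, with summed signals of 4650 to 7360 in ICGN and 3260 to 5190 in ICR (exact permutation p = 0.2). At 4 weeks 2 of 12 were higher and 0 lower, with sums of 3760 to 4430 and 3110 to 4020 (exact p = 0.4). At an unadjusted limma p under 0.05, 7 were higher and 0 lower at 4 weeks (median log2 fold change 0.39), and 7 and 0 at 8 weeks (0.75). The 3′ to 5′ ratio of Actb was 1.57 to 1.64 in ICGN and 1.7 to 2.1 in ICR at 8 weeks (exact p = 0.1), and 1.34 to 1.49 against 1.36 to 1.45 at 4 weeks (exact p = 0.8). The part of handling and of RNA quality in the results was not tested.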

How the data were processed

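Cortex RNA from 12 samples was labelled with biotin and read on Affymetrix Mouse Genome 430 2.0 GeneChips, per the labels. The authors deposited 1 linear intensity for each probe set and array. MAS5 is the tool that the submitters' processing notes name, without a version. Probe sets were named from the array annotation: 34945 had 1 symbol, and 932 with several, 64 controls, 3 for Dnajc18 and 3 for Dnajc19 with its pseudogene were left out. All 69 member IDs were in the RefSeq table (GRCm38.p6).

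Signals were brought to a shared array median of 40.4 and taken as log2(signal + 11.1), which understates the change of dim genes. A gene was represented by its brightest probe set on average, with those ending in _x_at used last. One model of 4 group means (8 residual degrees of freedom) was fitted over 12385 genes with R 4.3.3 and limma 3.58.1 (lmFit, eBayes with trend), and p-values were Benjamini-Hochberg adjusted over all of them; p-values and calls belong to the fold change before the median gene's shift was taken off, fold changes are printed after it. The scripts were tested on simulated data. The number of arrays limits precision. Members and lists were chosen with earlier results of these data known. Genes were named by a written rule: called members with the largest changes, the brightest of a class (for the choice of names only), members with opposed probe sets, and up to 4 called genes per other list; Hspb11, Dnajb9, Hsp90b1, Hspa9, Hspb8 at 4 weeks, Bag3, the motifs and the promoters shown were chosen after their values were seen.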

Additional observations from a re-analysis of the deposited data

Results flagged for a closer look

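For 4 J-domain genes the strain difference itself differed between 8 and 4 weeks by limma's test of that difference. The log2 difference was -1.30 for Dnajc12, -0.59 for Dnajc6, -0.51 for Dnaja3 and -0.43 for Dnajc3, each more negative at 8 weeks. Among all genes 7.9% passed this test. Dnajc12 alone of the 4 kept its call under all settings tried and without any 1 array.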

How the results depend on the processing

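Among the members, 2 of 4 calls at 4 weeks, 14 of 29 at 8 weeks, 1 of 4 for the difference between the ages, 8 of 18 with age in ICR and 2 of 7 with age in ICGN held under all settings and without any 1 array, and 1 changed direction: Dnajc13 at 8 weeks, from a log2 fold change of -0.28 to 0.0336 with the mean of probe sets. Quantile normalization gave 7 member calls at 4 weeks (5 lower and 2 higher), 19 at 8 weeks and 15 with age in ICGN, and 563 calls over all genes at 4 weeks. Centring on the tested genes gave 14 with age in ICGN, and fitting only the 2 groups compared gave 7 at 4 weeks. For the difference between the ages the 4 calls became 2 with no filter on dim probe sets, 7 with a filter at the 75th percentile, 2 without the variance trend and 1 with the mean of probe sets. Testing each probe set on its own gave 10, 51, 2, 45 and 18 member calls in the order above, and 574, 6631, 6727 and 4681 calls over all genes at 4 weeks, at 8 weeks and with age in ICR and in ICGN, from more features. With the replicate number as a block, members called were 5 at 4 weeks, 28 at 8 weeks, 7 for the difference between the ages, 21 in ICR and 8 in ICGN; same-numbered arrays correlated at -0.0927 to 0.0974, so the number did not pair them. Leaving out 1 array in turn gave 2 to 3, 19 to 33, 1 to 6, 12 to 18 and 5 to 10 member calls, and 173 to 301, 3032 to 4251, 474 to 1061, 2602 to 3276 and 1473 to 2159 over all genes. The brightest probe set without setting _x_at last, chosen after seeing the data, gave 4 and 30 member calls at 4 and 8 weeks. The cause of these changes was not tested.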
